A study of Mus musculus with 24 samples.

Results

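The genes described here are 28 genes of cholesterol synthesis, of the sterol regulatory element-binding protein 2 (SREBP2) system that controls it, and of the handling of the sterol once made. They were picked by name and matched through the accession of each array probe, and each was read on its brightest probe, out of 18535 gene symbols that the array carries. All 28 had a probe, 49 probes in all, and the brightest probe was the same in both tissues for all 28. The measurements came from a study of galectin-3, a sugar-binding lectin, in diet-induced diabetes, which compared the endothelium of wild-type (WT) C57BL/6 mice with that of galectin-3 (-/-) mice (KO), which lack the gene Lgals3 in all tissues rather than in endothelium alone. Mice of both strains ate a high-fat diet (HFD, 60% of calories from fat) or chow (12%) for 8 weeks, starting at 8 weeks of age. In each of 3 experiments, aortae and leg muscles of a few male mice per strain and diet were pooled, and live cells that stained for CD105 but not for the leukocyte antigen CD45 were sorted and hybridised to 1-colour Agilent whole-genome arrays. This gave 24 arrays in 8 groups of 3: WT chow, WT HFD, KO chow and KO HFD from the aorta, and the same 4 from skeletal muscle. Each array is a pool of mice, so every p-value below measures the spread between pools.

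Cells make cholesterol from acetyl-CoA through mevalonate, farnesyl diphosphate, squalene and lanosterol. When sterols are scarce in the endoplasmic reticulum, the escort protein SCAP carries SREBP2, encoded by Srebf2, to the Golgi, where the site-1 and site-2 proteases (Mbtps1, Mbtps2) release its transcription factor domain, which then switches on nearly the whole pathway. When sterols are plentiful, INSIG proteins hold SCAP and SREBP2 back, surplus cholesterol is esterified by SOAT1, and the same target genes go quiet together.

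Promoters were matched in RefSeq (GRCm38.p6) for 23 of the 28 genes, in 29 windows of 250 bases before a transcription start. Both strands were searched for the sterol regulatory element to which SREBP2 binds (TCACNCCAC), the NF-Y box (CCAAT) and the Sp1 box (GGGCGG), elements that are known to act beside it. Only exact matches to these letters were counted. Such a match to the sterol regulatory element was found only in the window of Hmgcs1. That is 3.45% of the members' windows, against 1.053% of the 32851 windows of all genes. The NF-Y box was in 65.5% of the members' windows against 33.85% of all windows, and the Sp1 box in 75.9% against 32.7%. The window of Hmgcs1 is shown because it holds all 3 motifs, and those of Insig1, Acat2, Mvd and Srebf2 because their diet values come up below, a choice made after those values were seen. They are written 5′ to 3′ on the strand of the gene, with any of the 3 motifs in capitals in either orientation (ATTGG and CCGCCC are the NF-Y and Sp1 boxes read on the other strand).
Hmgcs1 (chr13:119690101-119690350, plus strand): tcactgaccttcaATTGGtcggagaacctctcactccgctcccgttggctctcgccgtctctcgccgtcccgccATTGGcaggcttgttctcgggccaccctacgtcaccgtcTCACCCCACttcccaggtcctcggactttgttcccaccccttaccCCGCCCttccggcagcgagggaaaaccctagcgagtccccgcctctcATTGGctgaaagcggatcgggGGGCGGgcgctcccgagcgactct
Insig1 (chr5:28071162-28071411, plus strand): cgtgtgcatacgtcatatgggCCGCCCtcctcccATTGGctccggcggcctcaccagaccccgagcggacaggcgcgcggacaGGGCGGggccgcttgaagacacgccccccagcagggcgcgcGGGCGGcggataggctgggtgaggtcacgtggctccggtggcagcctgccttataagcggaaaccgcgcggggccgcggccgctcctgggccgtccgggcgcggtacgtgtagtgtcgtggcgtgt
Acat2 (chr17:12960726-12960975, minus strand): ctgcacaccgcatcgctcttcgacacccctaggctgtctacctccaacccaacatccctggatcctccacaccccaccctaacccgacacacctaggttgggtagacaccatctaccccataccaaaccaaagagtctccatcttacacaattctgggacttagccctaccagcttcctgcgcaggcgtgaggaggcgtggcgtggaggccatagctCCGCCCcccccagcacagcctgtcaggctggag
Mvd (chr8:122443423-122443672, minus strand): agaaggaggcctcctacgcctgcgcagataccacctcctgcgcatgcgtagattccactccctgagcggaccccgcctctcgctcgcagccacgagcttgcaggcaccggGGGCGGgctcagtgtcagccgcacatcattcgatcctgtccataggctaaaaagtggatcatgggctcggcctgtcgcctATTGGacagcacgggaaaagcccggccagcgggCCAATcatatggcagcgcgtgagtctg
Srebf2 (chr15:82147019-82147268, plus strand): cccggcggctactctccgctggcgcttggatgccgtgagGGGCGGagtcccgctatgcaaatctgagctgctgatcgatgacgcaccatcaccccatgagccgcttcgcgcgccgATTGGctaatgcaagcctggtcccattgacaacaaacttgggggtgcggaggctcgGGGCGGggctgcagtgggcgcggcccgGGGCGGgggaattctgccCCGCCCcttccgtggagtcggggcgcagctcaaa
Hmgcs1 had 3 NF-Y boxes and 2 Sp1 boxes beside its sterol element, Insig1 had 1 and 3, Mvd had 2 and 1, and Srebf2 had 1 and 4. Acat2 had no NF-Y box and 1 Sp1 box. These matches describe the letters in the windows and do not show binding.

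All 12 endothelial markers were well above background on every array, with sums of 148 to 469 in the aorta and 451 to 734 in muscle, in units of the array's 75th percentile of signal. Markers of other cell types gave signal too. In the same units the 7 fibroblast markers summed to 311 to 680 in the aorta, and the 9 skeletal muscle fibre markers to 30.5 to 235 in muscle. Sums of different lists rest on different probes, so they do not give shares of cells. At 32 probes that separated the strains in experiments 2 and 3, the HFD arrays from experiment 1, 4 in number, had values intermediate between WT and KO: 0.199 and 0.389 for the arrays labelled WT and 0.366 and 0.405 for those labelled KO, on a scale where 0 is the WT and 1 the KO mean. Some of the diet and strain values are therefore also given without experiment 1, and the rest include it. The probe for Lgals3 was well above background on all 24 arrays and gave more signal in KO than in WT in 11 of 12 pairs. Its place relative to the deleted part of the gene is not given in the sources used here, so it does not check the labels.

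Levels are given as log2 of the processed signal relative to the 75th percentile of its own array, and are compared only within a probe. A diet ratio is the HFD level minus the chow level of the same strain and experiment. In aortic endothelium the pathway did not move as a block with diet. Over the 6 diet pairs of both strains, 14 of the 27 members tested were higher on HFD and 13 lower, and their median log2 ratio was 0.04, against 0.01 over all 25865 probes tested. No member passed an adjusted p of 0.05 in limma, where 0.0309% of all probes did. At an unadjusted p under 0.05 there were 8 of 27 members (29.6%), 4 higher and 4 lower, against 15.1% of all probes. Of the 27, 7 had the same sign in all 6 pairs (25.9% against 10.3% of all probes): Mvd, Dhcr7 and Srebf2 were higher, and Insig1, Acat2, Fdft1 and Pmvk were lower. In bulk samples such as these, fewer cells of a type and less RNA per cell cannot be told apart.

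**Figure D1:**
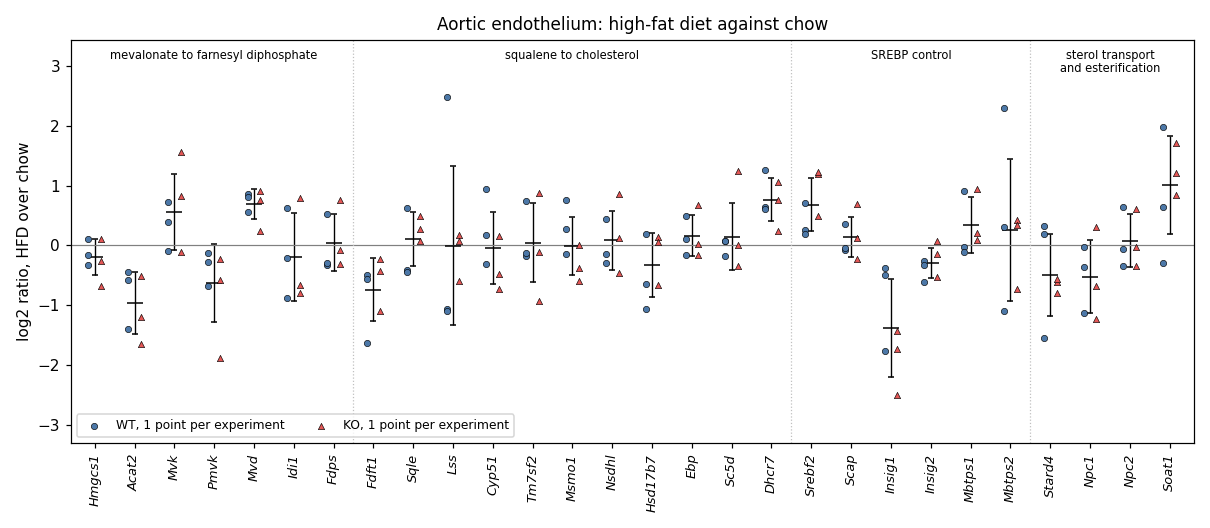
Log2 ratio of HFD to chow in aortic endothelium for each of the 28 genes, in pathway order. Each point is 1 experiment (WT blue circles, KO red triangles) and the bars give the mean ± SD of the 6 ratios. The ratios of Insig1, Acat2, Fdft1 and Pmvk all lie below 0 and those of Mvd, Dhcr7 and Srebf2 all lie above it. Mbtps2 is drawn but was too dim in the aorta to be tested.

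Among the 7 genes that lead from acetyl-CoA to farnesyl diphosphate, members went both ways. Acat2 encodes the cytosolic thiolase that joins acetyl-CoA units at the start of the pathway. In WT aortae its level was -2.45, -1.71 and -1.0 on chow and -2.89, -2.29 and -2.40 on HFD in experiments 1, 2 and 3. In KO aortae it was -1.70, -1.83 and -0.79 on chow and -2.90, -2.35 and -2.45 on HFD. Every HFD array was below its own chow array, and in the KO the groups did not overlap. The mean log2 ratio was -0.96 ± 0.24 (SE), a 1.95-fold difference (limma, adjusted p = 0.196).

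Mvd encodes mevalonate diphosphate decarboxylase, which forms isopentenyl diphosphate. Its level in WT aortae was -1.56, -1.79 and -2.19 on chow and -0.99, -0.92 and -1.38 on HFD, with no overlap. In KO aortae it was -1.26, -1.11 and -2.38 on chow and -1.02, -0.36 and -1.47 on HFD, and the groups overlapped. The 6 ratios ran from 0.23 to 0.91, with a mean of 0.69 ± 0.18 (SE; limma, adjusted p = 0.210). Pmvk, which encodes the kinase just before Mvd in the pathway, was opposite in sign, at -0.63 ± 0.26 (limma, adjusted p = 0.328). Its 6 ratios ran from -1.89 to -0.13, and another probe of the gene averaged -0.70 and was also lower in all 6 pairs. The -1.89 came from the KO of experiment 1, and without that experiment the mean was -0.44. Mvk, the kinase that acts on mevalonate itself, averaged 0.55 and was higher in 4 of 6 pairs. Hmgcs1, whose product makes HMG-CoA and whose promoter holds the sterol element printed above, averaged -0.20. Idi1 and Fdps, which interconvert and join the isoprene units, averaged -0.19 and 0.04, and each was lower in 4 of 6 pairs.

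Of the 11 genes from squalene to cholesterol, the first and the last enzyme stood apart in opposite directions. Fdft1 encodes squalene synthase, the step that commits farnesyl diphosphate to sterols. Its level in WT aortae was -1.86, -0.45 and -0.69 on chow and -2.35, -2.09 and -1.25 on HFD, and in KO aortae 0.41, -1.27 and -0.47 on chow and -0.69, -1.5 and -0.91 on HFD. All 6 HFD arrays were below their chow partners although the groups overlapped in both strains. The mean ratio was -0.74 ± 0.24 (SE; limma, adjusted p = 0.255), and another probe gave -0.60, lower in 5 of 6 pairs. Dhcr7 encodes 7-dehydrocholesterol reductase, which makes cholesterol itself. Its level in WT aortae was 0.17, -0.65 and -0.57 on chow and 0.81, 0.61 and 0.04 on HFD, and in KO aortae -0.16, -0.22 and -0.58 on chow and 0.61, 0.84 and -0.34 on HFD. Each HFD array was above its chow partner, with overlap in both strains, and the mean ratio was 0.76 ± 0.20 (SE; limma, adjusted p = 0.212). The other 9 genes lay between -0.33 (Hsd17b7, a 3-ketosteroid reductase) and 0.16 (Ebp, the sterol isomerase), none with the same sign in every pair. They included Sqle, squalene epoxidase, at 0.10, Msmo1, the C4-methyl oxidase, at -0.02, and Cyp51, lanosterol demethylase, at -0.04. For Lss, lanosterol synthase, the WT chow array of experiment 1 was not well above background, at -8.14, and the ratios of the 6 pairs ran from -1.09 to 2.48, with a mean of -0.01 and of -0.67 without that experiment.

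The largest diet difference among the 27 members belonged to the control system. Insig1 encodes a protein that retains SCAP in the endoplasmic reticulum. In WT aortae its level was -2.22, -4.75 and -1.52 on chow and -2.59, -5.24 and -3.30 on HFD. In KO aortae it was -1.96, -2.66 and -3.55 on chow and -3.69, -4.09 and -6.06 on HFD. The spread between experiments was wide, yet each HFD array was below its own chow array, and in the KO the lowest chow array lay above the highest HFD array. The mean ratio was -1.38 ± 0.27 (SE), a 2.61-fold difference (limma, adjusted p = 0.138). The other tested probe of Insig1 gave -0.25 and was lower in only 3 of 6 pairs, so the probes of this gene disagree.

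Srebf2 lay the other way. Its level in WT aortae was -1.03, -2.13 and -1.93 on chow and -0.76, -1.41 and -1.73 on HFD, and in KO aortae -1.52, -2.58 and -1.64 on chow and -0.32, -1.35 and -1.14 on HFD. The KO groups did not overlap and the WT groups did, and the mean ratio was 0.68 ± 0.20 (SE; limma, adjusted p = 0.231). Insig2, the isoform of Insig1, averaged -0.30 and was lower in 5 of 6 pairs, and another probe of it averaged -0.71, also lower in 5 of 6. Scap and Mbtps1 averaged 0.14 and 0.34 with mixed signs.

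Among the genes of sterol transport and storage, Soat1, which encodes the acyltransferase that esterifies cholesterol for storage, had the highest ratio. Its level in WT aortae was 1.19, -0.22 and 0.61 on chow and 1.84, 1.77 and 0.31 on HFD, and in KO aortae 0.38, 0.37 and -0.46 on chow and 1.59, 2.09 and 0.39 on HFD. On HFD 5 of 6 pairs were higher, the exception being WT of experiment 3, and the KO groups did not overlap. The mean ratio was 1.02 ± 0.32 (SE; limma, adjusted p = 0.248). Its other probes gave 1.00 (higher in 4 of 6 pairs) and -0.13 (higher in 2 of 6). Npc1 and Npc2, which move cholesterol out of lysosomes, averaged -0.52 and 0.08, and Stard4, a soluble sterol carrier, averaged -0.50. None of these 3 had the same sign in all pairs.

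The 7 genes with 1 sign necessarily keep it in any subset of the pairs, so only their means are given without experiment 1. These were -1.55 for Insig1, -1.04 for Acat2, -0.71 for Fdft1, -0.44 for Pmvk, 0.84 for Mvd, 0.79 for Dhcr7 and 0.66 for Srebf2. The mean of Soat1 was 1.06. Markers of other cell types also differed with diet on the same arrays, some lists lower on HFD and some higher. Over both strains most fibroblast (7 of 7), smooth muscle (6 of 8), lymphatic endothelial (4 of 5) and leukocyte (3 of 3) markers were higher. Their median log2 ratios were 0.25, 0.11, 0.20 and 0.56. Skeletal muscle fibre markers had a median of -0.89, with 2 of 9 higher. Of 8 adipocyte markers, 7 were tested in the aorta and all 7 were lower on HFD, with a median log2 ratio of -3.73. Their summed level ran from 95.4 to 178 on WT chow arrays against 7.49 to 16.4 on WT HFD arrays, and from 110 to 341 on KO chow arrays against 12.6 to 18.7 on KO HFD arrays, while Lep was not detected in any group. All 5 brown adipocyte markers were lower in both strains, with medians of -1.0 in WT and -1.55 in KO, and sums of 7.48 to 34.5 on WT chow, 5.74 to 11.8 on WT HFD, 19.5 to 120.2 on KO chow and 8.74 to 15.8 on KO HFD arrays. Macrophage markers had a median of -2.23 in WT (7 of 8 lower) and -0.26 in KO (5 of 8 lower), with sums of 2.75 to 5.0, 1.15 to 2.31, 0.690 to 3.64 and 1.39 to 1.79 in the same order. The 12 endothelial markers were lower on HFD as well, with a median of -0.65. The part of these markers in the ratios of the sterol genes was not tested.

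Other genes of sterol and lipid metabolism, 55 in 4 lists, were counted beside the members. Of the 52 tested in the aorta none passed the adjusted p of 0.05 in limma, and 9 passed an unadjusted p of 0.05, 1 higher and 8 lower, or 17.3% against the 15.1% of all probes. Fatty acid synthesis genes that SREBPs also drive gave 4 of 15, all lower. Genes of sterol export and other sterol transport gave 5 of 16, 1 higher and 4 lower. The 9 sterol-sensing genes and the 12 tested genes of the isoprenoid branch gave 0.

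The comparisons within a strain use the same arrays as those over both strains. Within each strain no member passed the adjusted p in either aorta, where no probe of the array did (0% in both). In WT aortae 4 members reached an unadjusted p of 0.05 (Acat2 and Fdft1 lower, Mvd and Dhcr7 higher), 14.8% against 5.77% of all probes. In KO aortae it was 7 (Insig1, Acat2 and Pmvk lower, Soat1, Srebf2, Dhcr7 and Mvd higher), 25.9% against 11.3%. Groups did not overlap for 6 members in the KO, 22.2% against 14.0% of all probes: Srebf2 and Soat1 were higher on HFD, and Insig1, Acat2, Pmvk and Stard4 were lower. In the WT it was 2 members, Mvd higher and Insig2 lower, 7.41% against 7.23%. The study called a transcript where the log2 ratio passed 1 the same way in all 3 experiments. In KO aortae 1 member did so, Insig1 at -1.73, -1.43 and -2.51 (mean -1.97 without experiment 1), 3.70% of members against 2.93% of all probes. In WT aortae none did, where 1.59% of all probes passed.

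The difference between the strains in diet response was tested directly. No member passed the adjusted p in the aorta and none reached an unadjusted p of 0.05, where 2.62% of all probes did. Insig1 came nearest, its ratio being lower in the KO than in the WT in all 3 experiments, by -1.35 to -0.74, with a mean of -1.01 ± 0.53 (SE). That of Srebf2 was higher in the KO in all 3, by 0.58 ± 0.39 (SE) on average. Those of Cyp51 and Msmo1 were lower in the KO in all 3, each with a mean of -0.62, and those of Insig2 and Mbtps1 were higher in all 3, by 0.20 and 0.16. These 6 were 22.2% of the members tested, against 22.1% of all probes with 1 sign in all 3 experiments. The values of Insig1 and Srebf2 include the arrays of experiment 1 that were intermediate between the strains, and without that experiment their means were -0.84 and 0.40.

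In the endothelium of skeletal muscle the members were spread around a median ratio of 0.08, with 17 of 28 higher on HFD, against a median of -0.01 over all 25682 probes tested. No member passed the adjusted p of 0.05 in limma, where 0.288% of all probes did. At an unadjusted p under 0.05 there were 3 of 28 (10.7%), Dhcr7, Sqle and Soat1, all higher, against 16.4% of all probes and 7.28% in that direction. Only Dhcr7 and Scap had the same sign in all 6 pairs, 7.14% against 11.3% of all probes.

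**Figure D2:**
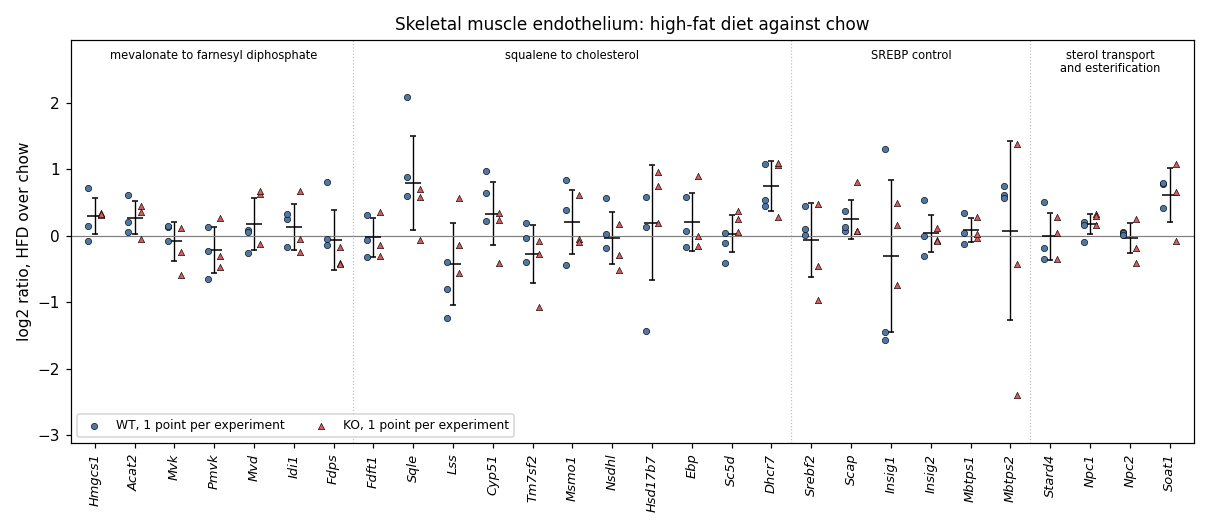
Log2 ratio of HFD to chow in skeletal muscle endothelium for each of the 28 genes, in pathway order. Each point is 1 experiment (WT blue circles, KO red triangles) and the bars give the mean ± SD of the 6 ratios. The ratios of Dhcr7 and Scap all lie above 0, and those of Insig1 lie on both sides of it, from -1.57 to 1.30.

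The level of Dhcr7 in WT muscle was 0.02, -0.41 and -0.49 on chow and 0.55, 0.66 and -0.04 on HFD, and in KO muscle -0.24, -0.28 and -0.40 on chow and 0.82, 0.81 and -0.12 on HFD. In the KO the groups did not overlap, and the mean ratio over both strains was 0.75 ± 0.18 (SE; limma, adjusted p = 0.147). Another probe of Dhcr7, well above background on 7 of the 12 arrays, gave -0.21 and was higher in 2 of 6 pairs. Without experiment 1 the mean of the brightest probe was 0.72.

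The level of Sqle, the squalene epoxidase regarded as a control point of the late pathway, was -0.55, -2.40 and -1.42 on WT chow and 0.04, -0.32 and -0.54 on WT HFD. In KO muscle it was -1.23, -1.35 and -0.76 on chow and -0.66, -0.65 and -0.83 on HFD. The highest WT chow array (-0.55) lay just below the lowest WT HFD array (-0.54), and the KO groups overlapped. The mean ratio was 0.79 ± 0.24 (SE; limma, adjusted p = 0.191), with 1.18 in the WT and 0.40 in the KO.

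Soat1 was -0.50, -1.03 and -1.47 on WT chow and -0.09, -0.25 and -0.67 on WT HFD, and -1.0, -1.27 and -1.27 on KO chow and 0.08, -0.61 and -1.35 on KO HFD. Of the 6 pairs 5 were higher, the exception being KO of experiment 3, with a mean of 0.61 ± 0.19 (SE; limma, adjusted p = 0.207). Its other probes gave 0.09 and 0.16 with mixed signs. Without experiment 1 the means were 0.90 for Sqle and 0.54 for Soat1. Scap averaged 0.25, with 5 of the 6 ratios between 0.06 and 0.36.

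The genes with the lowest and highest regulator ratios in the aorta, Insig1 and Srebf2, had both signs in muscle. Insig1 averaged -0.30 in muscle, higher in 3 of 6 pairs, and -0.82 without experiment 1, whose WT pair alone gave 1.30. Srebf2 averaged -0.07 and was higher in 4 of 6 pairs, and Acat2 averaged 0.27 and was higher in 5 of 6. The brightest probe of Insig2 averaged 0.03, while another probe, well above background on all 12 arrays, averaged -0.87 and was lower in all 6 pairs (limma, adjusted p = 0.105). Fdft1 was likewise split, with -0.03 on the brightest probe and 0.74, higher in all 6 pairs, on another. Macrophage and fibroblast markers were higher on HFD in muscle, 6 of 7 and 7 of 7 tested, with medians of 1.58 and 1.15. All 7 adipocyte markers tested were lower on HFD in KO muscle (median -1.17), and 4 of 7 in WT muscle (median -0.23). Their summed level ran from 9.45 to 18.1 on WT chow arrays against 3.44 to 26.2 on WT HFD arrays, and from 12.9 to 73.6 on KO chow arrays against 2.62 to 24.2 on KO HFD arrays. The summed fibroblast level ran from 28.9 to 111 on WT chow arrays against 36.4 to 221 on WT HFD arrays, and from 24 to 140 on KO chow arrays against 44.9 to 224 on KO HFD arrays. That of the macrophage markers ran from 0.292 to 4.08 against 1.38 to 8.76 in the WT and from 0.187 to 3.20 against 0.293 to 20.9 in the KO. The part of these markers in the sterol genes' values was not tested.

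**Figure D3:**
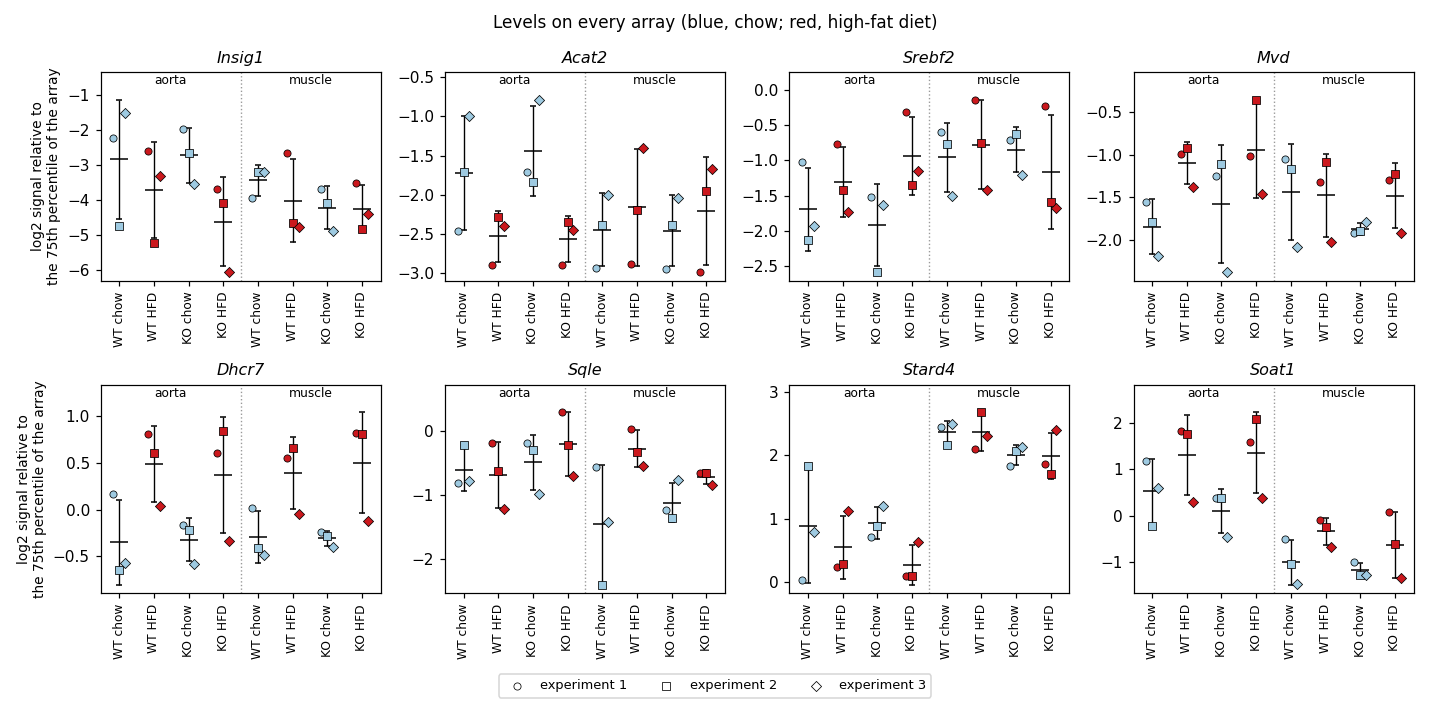
Level of 8 of the genes on each of the 24 arrays, as log2 signal relative to the 75th percentile of the array. Chow is blue, HFD red, the symbol gives the experiment, and bars are the mean ± SD of the 3 arrays of a group. Dhcr7 is higher on HFD in every pair of both tissues, in the aorta every HFD array of Insig1 and Acat2 lies below its chow partner and every HFD array of Srebf2 and Mvd above it, and Stard4 and Soat1 separate the tissues in every pair.

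In WT muscle 5 members reached an unadjusted p of 0.05, 17.9% against 12.1% of all probes. Sqle, Dhcr7, Soat1 and Cyp51 were higher, and Lss, which cyclises squalene epoxide to lanosterol, was lower. The level of Lss was -3.06, -3.73 and -2.86 on WT chow and -3.45, -4.53 and -4.10 on WT HFD, each pair lower, for a mean ratio of -0.81 ± 0.29 (SE; limma, adjusted p = 0.345). Over both strains it averaged -0.43, and -0.68 without experiment 1. In KO muscle Dhcr7 alone did, at 0.81 ± 0.26 (SE; limma, adjusted p = 0.525), or 3.57% against 8.49%. No member passed the adjusted p in either strain, where 0% of probes did in the WT and 0.00389%, or 1 probe, in the KO. For no member in muscle did the difference between the strains' diet responses reach an unadjusted p of 0.05, against 4.12% of all probes. In muscle 5 of 28 members (17.9%) had a difference of 1 sign in all 3 experiments, against 28.4% of all probes: 0.87 for Hsd17b7, -0.78 for Sqle, 0.77 for Lss, -0.55 for Fdps and 0.39 for Sc5d.

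Across both tissues Dhcr7 was the only member higher on HFD in all 12 pairs, where 1.75% of the 24160 probes tested in both tissues had 1 sign throughout and 1.03% were higher throughout. Next to it, Mvd, Soat1 and Srebf2 were higher in 10 of 12, and Fdft1 and Pmvk were lower in 10 of 12. These counts use the brightest probe of each gene. As given above, another probe of Dhcr7 and another of Fdft1 had a mean of the opposite sign in muscle, and another of Soat1 did in the aorta.

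Of the other pathway genes in muscle, 12 of 50 tested passed an unadjusted p of 0.05, 4 higher and 8 lower, or 24% against 16.4% of all probes, and 0 passed the adjusted p in limma. Sterol export and transport gave 5 of 15, all lower, and the sterol-sensing list gave 2 of 9, both higher. In KO muscle Cyp27a1, the sterol 27-hydroxylase that turns cholesterol into an oxysterol, passed a log2 ratio of -1 in all 3 experiments, with a mean of -2.65 (limma, adjusted p = 0.301).

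KO and WT were then compared over both diets in a fit without a block, with signs counted over 6 pairs a tissue. In the aorta no member reached even an unadjusted p of 0.05, where 3.39% of all probes did and 0.0116% passed the adjusted p. Cyp51 was higher in the KO in all 6 pairs, by 0.46 on average, and so was Tm7sf2, which encodes a sterol C14-reductase, by 0.36. Hsd17b7 was lower in 5 of 6 pairs, with a mean of -0.53. Cyp51 and Tm7sf2 made 7.41% of members with 1 sign in every pair, against 4.42% of all probes. In muscle Lss alone reached an unadjusted p of 0.05 (3.57% against 3.27% of all probes), while no probe passed the adjusted p (0%). Its level was -3.06, -3.73 and -2.86 on WT chow against -5.22, -5.24 and -3.83 on KO chow, and -3.45, -4.53 and -4.10 on WT HFD against -4.66, -5.38 and -4.38 on KO HFD. The KO array was lower in all 6 pairs and the chow groups did not overlap, with a mean difference of -1.16 ± 0.32 (SE; limma, adjusted p = 0.935). Without experiment 1 the mean was -0.90. Another probe of Lss, well above background on 8 of 12 muscle arrays, averaged 0.13 and was not tested. Pmvk was lower in the KO in all 6 muscle pairs, with a mean of -0.15, so that 2 of 28 members (7.14%) had 1 sign in every muscle pair against 5.51% of all probes.

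Members passed the adjusted p only between the tissues. Aorta and muscle of the same pools of mice formed 12 pairs. In the fit without the pool as a block, 8 of 28 members (28.6%) passed the adjusted p of 0.05 in limma, 3 higher and 5 lower in the aorta, against 46.1% of all 27387 probes. Of all probes called, 4373 were higher and 8257 lower, and with the centring that the deposited log2 values carry, 5927 were higher and 4129 lower, so that the median of all probes moved from -0.27 to -0.01. The values of the members' brightest probes below are therefore followed by the same value relative to the median of -0.27. With the pool as a block 12 members passed, the same 8 and Mbtps1 (adjusted p = 0.00829), Srebf2 (0.0127), Nsdhl (0.0232) and Tm7sf2 (0.0323), with 15402 probes called. With 1 experiment left out 4 or 5 members passed, and the share of all probes called in those fits is not given. The tissues lay on different slides, and with the slide as a random block 3 of the 8 kept an adjusted p under 0.05: Stard4, Soat1 and Npc1.

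All 4 genes of sterol transport and storage were among the 8. Stard4, the sterol carrier, was lower in the aorta in 12 of 12 pairs. On chow its level was 0.04, 1.83 and 0.78 in WT aorta against 2.45, 2.17 and 2.49 in WT muscle, and 0.71, 0.89 and 1.20 in KO aorta against 1.83, 2.06 and 2.13 in KO muscle. On HFD it was 0.23, 0.29 and 1.11 against 2.11, 2.68 and 2.30 in the WT, and 0.09, 0.09 and 0.64 against 1.87, 1.71 and 2.40 in the KO. Within each strain and diet the tissues did not overlap. The mean difference was -1.53 ± 0.18 (SE), 2.88-fold, or -1.25 relative to the median (limma, adjusted p = 1.72e-06, and 0.000177 with the slide block), and its other probes gave -2.25 and -2.30.

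Soat1 was higher in the aorta in 12 of 12 pairs. Its 6 chow levels ran from -0.46 to 1.19 in the aorta and from -1.47 to -0.50 in muscle, and its 6 HFD levels from 0.31 to 2.09 in the aorta and from -1.35 to 0.08 in muscle. The mean difference was 1.61 ± 0.25 (SE), 3.05-fold, or 1.88 relative to the median (limma, adjusted p = 3.52e-05, and 0.000943 with the slide block), and its other probes gave 1.70 and 0.90. Npc1 was lower in the aorta in 11 of 12 pairs, with a mean of -0.79 ± 0.15, or -0.52 relative to the median (limma, adjusted p = 0.000261, and 0.00694 with the slide block). Its partner Npc2 was higher in 11 of 12 pairs, at 0.39 ± 0.12, or 0.66 relative to the median (limma, adjusted p = 0.0149).

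**Figure D4:**
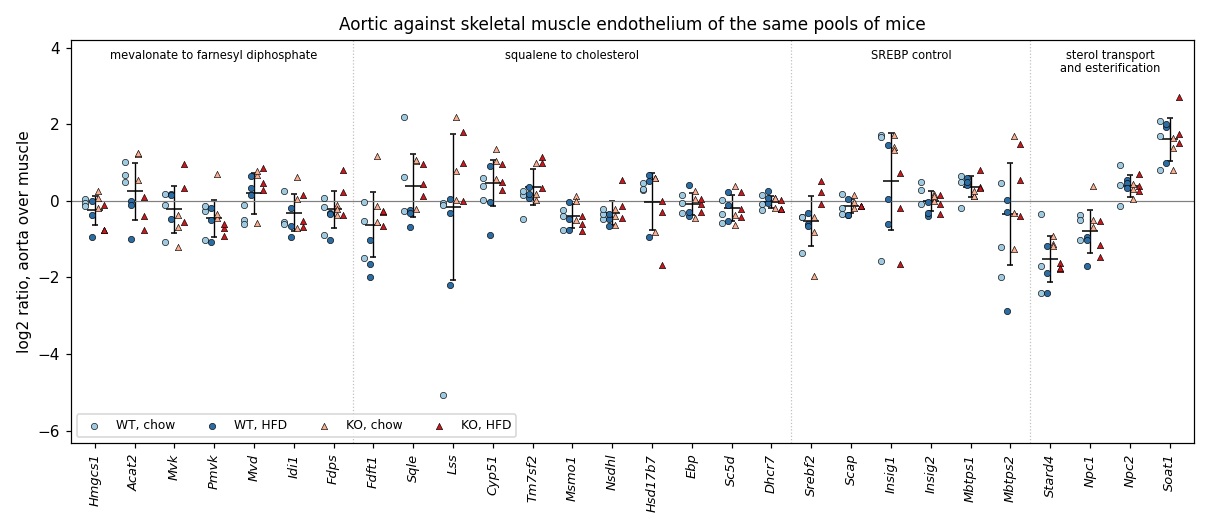
Log2 ratio of aortic to skeletal muscle endothelium from the same pool of mice for each of the 28 genes, in pathway order. Each point is 1 pool (colour and symbol give strain and diet) and the bars give the mean ± SD of the 12 ratios. All 12 points of Stard4 lie below 0 and all 12 of Soat1 above it. Those of Dhcr7 stay between -0.23 and 0.26.

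Among the enzymes, Pmvk was lower in the aorta at -0.46 (-0.19 relative to the median), Fdft1 at -0.62 (-0.35) and Msmo1 at -0.40 (-0.13), each in 11 of 12 pairs, and Cyp51 was higher by 0.47 (0.75) in 10 of 12. Their adjusted p in limma ran from 0.0177 to 0.0332, and none of the 4 passed with the slide block. With the centring of the deposited table Pmvk, Fdft1 and Msmo1 no longer passed, and Cyp51 did not pass with normexp, with no dim-probe filter or with the mean over its probes. Another probe of Fdft1 gave 0.24 and another of Cyp51 -0.43. No gene of the SREBP control system passed without the pool block, the nearest being Mbtps1 at 0.37 (0.65 relative to the median, adjusted p = 0.0561) and Srebf2 at -0.52 (-0.25, adjusted p = 0.0684). Mbtps1 passed with quantile normalization (0.56, adjusted p = 0.000457), with the deposited centring (0.64, adjusted p = 0.00298), with normexp (0.40, adjusted p = 0.0393) and with the every-array filter (adjusted p = 0.0482), and the mean over its probes was 0.11 (adjusted p = 0.652). The level of Dhcr7, the gene that was higher on HFD in both tissues, was 0.05 in the aorta and 0.07 in muscle on average.

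Of the 52 other pathway genes tested between the tissues, 32 passed the adjusted p in limma, 11 higher and 21 lower (61.5% against 46.1% of all probes). Fatty acid synthesis gave 11 of 15, 7 higher and 4 lower. The 4 largest differences of all were in that list and all higher in the aorta: Me1, the malic enzyme that supplies NADPH, by 2.97, the stearoyl-CoA desaturase Scd1 by 2.74, the fatty acid synthase Fasn by 2.68 and the lipase Pnpla3 by 2.51. Cell type markers differed between the tissues too. All 7 adipocyte markers tested were higher in the aorta (median 2.18) and so were all 7 fibroblast markers (median 4.01, sums of 311 to 680 against 24 to 224). All 9 skeletal muscle fibre markers were lower (median -6.62, sums of 1.69 to 9.88 against 30.5 to 235), and so were 12 of 12 endothelial markers (median -1.06). All 5 brown adipocyte markers were higher in the aorta (median 5.59), and 2 of 8 smooth muscle markers were (median -1.13). Of the lymphatic endothelial markers 4 of 5 were higher (median 0.42), of the macrophage markers 3 of 8 (median -0.36) and of the leukocyte markers 0 of 3 (median -0.26). The part of these markers in the differences between the tissues was not tested.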

How the data were processed

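RNA of the sorted cells was amplified, labelled with Cy3 and hybridised to Agilent arrays, and the authors deposited the scanner output, read here as processed signal intensity, and a log2 table of the same arrays, with Agilent Feature Extraction 9.1 in the submitters' processing notes and 10.5.1.1 in the headers of the files. On each array 99.6% to 99.97% of the 41174 deposited log2 values equalled those computed here plus a constant, within 0.01. Here log2 of the processed signal was taken relative to the 75th percentile of the array, after leaving out control spots and 1903 outlier values, and a probe was tested where it was well above background on all arrays of at least 1 group. Symbols came from probe accessions matched to RefSeq (27190 probes with 1 symbol, 13984 with several or none), and each gene was represented by its brightest probe. Diet, strain and tissue were tested with limma 3.58.1 in R 4.3.3, with Benjamini-Hochberg adjustment over all probes tested. The diet tests carried a block for each strain and experiment, pairing an HFD with a chow array, since the study formed ratios within an experiment. The strain and tissue tests carried no block. Aorta and muscle of 1 pool of mice deviated together, with correlations of 0.0685 to 0.399 (over 0.1 in 9 of 12 pairs). Arrays of one experiment deviated together, with correlations of 0.0081 to 0.340 between HFD and chow in the aorta (over 0.1 in 2 of 6 pairs) and 0.0605 to 0.453 in muscle (5 of 6). Between KO and WT they were 0.0672 to 0.580 in the aorta (5 of 6) and 0.274 to 0.524 in muscle (6 of 6). The number of arrays limits the precision. The arrays lay on 6 slides, each with 1 tissue of 1 experiment, and the experiment 1 slides were scanned on another day. On every slide the KO arrays lay at positions 1 and 3 and the WT arrays at 2 and 4. HFD arrays lay at positions 3 and 4 in experiment 1 and at 1 and 2 in experiments 2 and 3. Position therefore cannot be told apart from strain, nor from diet in the values without experiment 1. Members and lists were chosen with earlier results of these data known. Members are named throughout, and other genes only where they passed an adjusted p of 0.05 or a log2 ratio of 1 in every pair, at most the 4 largest per comparison. Alternatives were normexp, quantile, no or a stricter dim-probe filter, gene means, the deposited table, no replicate block, slide blocks, each experiment left out, and the methods' 1-sample test. The fits were tested on simulated data.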

Additional observations from a re-analysis of the deposited data

Results flagged for a closer look

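Acat2 had opposite diet ratios in the WT tissues. HFD minus chow averaged -0.807 on the log2 scale in the aorta, lower in 3 of 3 pairs, and 0.283 in muscle, higher in 3 of 3 pairs. The difference between the tissues was not tested. All members were searched for such opposite signs, between strains or tissues in diet ratio and between tissues in strain difference. Acat2 alone was found, and the share of all probes with such signs is not given.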

How the results depend on the processing

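No member passed the adjusted p in any diet or strain comparison under any alternative run, and no member's value that passed a test changed its sign. Medians of the members near 0 changed sign in several comparisons. Counts of probes called over the whole array moved with the processing, and the cause was not tested. Diet in the aorta over both strains called 8 probes, against 55 with normexp, 5 with no dim-probe filter, 41 with the every-array filter, 13 with gene means, 50 without the replicate block, 58 with the slide block and 0 with any 1 experiment left out. The members' median of 0.04 there ran from -0.19 to 0.17 with 1 experiment left out. In muscle 74 became 221, 1 and 247 with the first 3 of these, 274 with the slide block and 0 with 1 experiment left out, and 51 without the replicate block. Within a strain, normexp, the every-array filter and no replicate block gave 2, 2 and 4 in WT aorta (0 as reported, 2 with the slide block), 4, 5 and 7 in KO aorta (0, 4 with the slide block), 8, 29 and 1 in WT muscle (0) and 5, 2 and 4 in KO muscle (1, 4 with the slide block, 0 with the methods' test and with 1 experiment left out). KO against WT in the aorta called 3, against 8 with normexp, 1 with quantile, no filter, gene means or the replicate block, 0 with the every-array filter and 0 to 3 with 1 experiment left out. In muscle leaving out 1 experiment gave 0 to 2. Between tissues 8 members were called, against 4 to 5 with 1 experiment left out, 3 with the slide as a random block (7715 probes against 12630) and 12 with the pool as a replicate block, and the members' median of -0.14 became 0.12 with the deposited table. For the tissues, the probes called with 1 experiment left out are not given. Stard4, Soat1 and Npc1 passed under all 11 alternatives run for them.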
